A study of Homo sapiens with 12 samples.

Results

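The cultures described are the ATRA-only controls of both experiments, which are 6 of the 12 libraries of the series and were chosen by their labels alone. They comprise 3 pre-treatment controls and 3 co-treatment controls. All were SH-SY5Y cells, a human neuroblastoma line that the labels trace to the bone marrow-derived line SK-N-SH, and all received 10 μM all-trans retinoic acid (ATRA) for 7 days, by the study's methods, and no H2O2. The labels call them untreated and do not mention ATRA for them. The remaining 6 libraries came from cells given 10 μM H2O2. It was given throughout the 7 days of ATRA (co-treatment) or in a period before ATRA (pre-treatment). The control sets belong to separate experiments, so the time of culture, RNA extraction and sequencing cannot be told apart from the set. Whether the pre-treatment controls were also kept in culture for the period before ATRA is not stated, so length of culture may differ between sets. Nothing in the labels says that replicates were separate cultures, so the p-values measure only the spread between these samples, which may be technical. The cells are 1 tumour line, and bulk RNA cannot tell fewer cells of a type from less RNA per cell.

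Retinoic acid enters the nucleus and binds retinoic acid receptors that pair with retinoid X receptors on DNA. In SH-SY5Y cells, which carry a sympathetic noradrenergic programme held by factors such as PHOX2A, HAND2 and GATA3, this signal slows division and is used to obtain neurite-bearing, neuron-like cells. The same signal turns on its own control, since the cytochromes of the CYP26 family degrade retinoic acid.

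Between 37228976 and 76140104 reads were counted on genes per control library, and 25072 gene symbols had at least 1 count in all 6. The libraries differed in make-up more than their labels did. Small structured RNAs (7SL, 7SK, RNase P and small nucleolar and nuclear RNA loci) took 1.59%, 2.88% and 17.6% of counted reads in pre-treatment controls 1, 2 and 3, against 5.31%, 9.87% and 12.9% in co-treatment controls 1, 2 and 3. Reads outside annotated genes numbered 0.800, 0.830 and 0.200 per counted read in the pre-treatment controls and 0.370, 0.285 and 0.284 in the co-treatment controls. Pre-treatment control 3 thus lay on the far side of the co-treatment controls from the other two in both measures. Ribosomal protein mRNAs took 2.87%, 2.79% and 4.94% against 3.85%, 4.70% and 5.18%. The sets overlapped in each measure, with two-sided exact permutation p = 0.8, 0.4 and 0.3 for the 3 of them, in a design that cannot go below 0.10.

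The 7SL locus RN7SL1 ran from 0.173% to 2.67% of counted reads over the controls, and the RNase P locus RPPH1 from 0.164% to 2.95%. The single locus RN7SK, the 7SK RNA that holds the elongation factor P-TEFb inactive, spread less in proportion but took a larger share. It is shown because it alone took 0.717%, 1.38% and 6.09% of counted reads in the pre-treatment controls and 2.45%, 4.08% and 6.36% in the co-treatment controls. It lies at chr6:52860419-52860746 on the plus strand of GRCh37, spans 328 bases, and opens with these 60 bases, none of them marked:
RN7SK: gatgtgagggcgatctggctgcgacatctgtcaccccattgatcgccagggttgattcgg

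**Figure D1:**
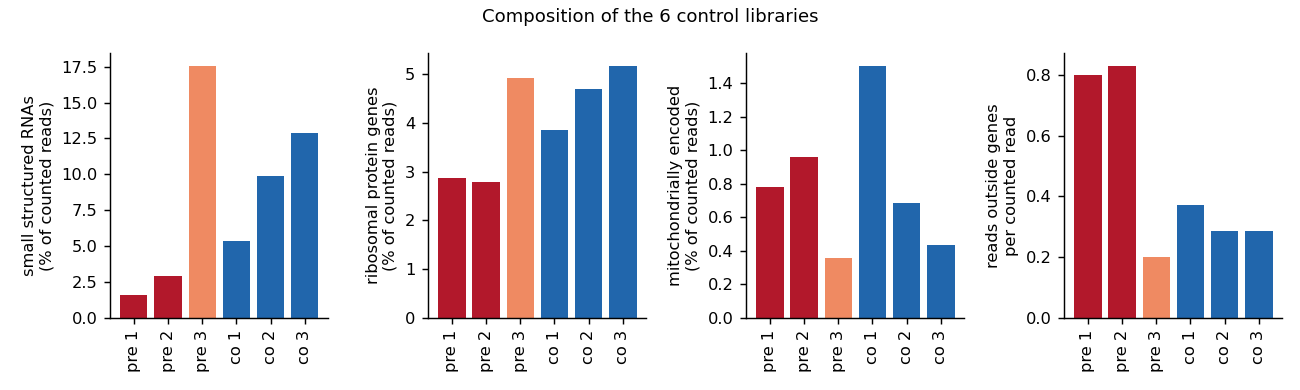
Bars give, for each control library (pre 1 to 3, co 1 to 3), the percentage of counted reads on small structured RNAs, ribosomal protein genes and mitochondrially encoded genes, and the reads outside genes per counted read. Pre-treatment control 3, with 17.6% small structured RNA and 0.200 reads outside genes per counted read, sits apart from pre-treatment controls 1 and 2 at 1.59% and 2.88% and at 0.800 and 0.830.

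Expression profiles followed the same order. Counts were scaled by effective library size (CPM). The first principal component of log2 CPM held 59.9% of the variance and placed pre-treatment controls 1 and 2 at 89.8 and 93.6, co-treatment control 1 at 0.77, co-treatment controls 2 and 3 at -47.2 and -62.2, and pre-treatment control 3 at -74.8. Pre-treatment controls 1 and 2 correlated at r = 0.983 across genes, and pre-treatment control 3 correlated with them at 0.952 and 0.949 but with the co-treatment controls at 0.978, 0.984 and 0.982. These values describe genes that are not independent. Because this library stood with the other set, the comparison of the sets is given with it and without it. Whether its label is right, or whether it was prepared apart from the other pre-treatment controls, was not tested, and every value given for it carries that doubt.

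**Figure D2:**
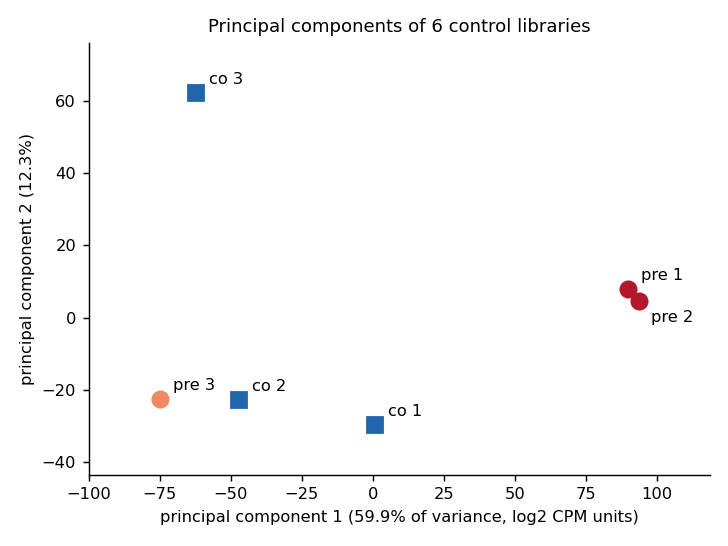
Each point is 1 control library on the first and second principal components of log2 CPM, which hold 59.9% and 12.3% of the variance. Pre-treatment controls 1 and 2 lie together at the right, and pre-treatment control 3 lies at the left edge beside the co-treatment controls.

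Levels of different genes were compared as TPM, counts divided by exon length and scaled to the same total in each library. Of 19118 protein-coding genes with a length, 11200 reached 1 TPM in all 6 controls, 6065 reached 10, 423 reached 100 and 10 reached 1000. The TPM total includes the small structured RNAs. NBPF15, the steadiest abundant coding gene, lay between 54.8 and 57.1 CPM in all 6 libraries but between 15.9 and 52.7 TPM.

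The highest coding transcript was CRABP2, the carrier that delivers retinoic acid to its receptors, with a mean of 3945 TPM and a range of 2537 to 5544. Next came RPS27 (3356 TPM), the actin-sequestering peptide TMSB10 (3336 TPM) and RGS5, a brake on G-protein signalling (3178 TPM). The ferritin light chain FTL, the elongation factors EEF2 and EEF1A1, the growth-cone protein STMN2, ACTB, 3 histone genes, GAPDH and ACTG1 were also among the 15 highest, between 1272 and 2360 TPM. Among long noncoding RNAs the nuclear transcript MALAT1 led at 1089 TPM, followed by H19 at 530, the telomerase RNA TERC at 424, SCARNA9 at 378 and LINC00657 at 326 TPM. CRABP2 thus exceeded every ribosomal protein transcript in mean level, while ribosomal, cytoskeletal and histone mRNAs filled most of the other places.

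Retinoic acid genes were among the most abundant. RET, a GDNF-family receptor tyrosine kinase that retinoic acid raises in neuroblastoma, averaged 1217 TPM, CYP26A1 1113 TPM and CYP26B1 911 TPM. RARB, the receptor gene that its own ligand induces, averaged 49.3 TPM, RARA 36.0 TPM and RXRA 6.01 TPM. CYP26A1 stayed between 842 and 1787 CPM across the 6 libraries, whereas CYP26B1 ran from 453 to 2331 CPM.

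Neuronal markers were present with 2 weak members. TUBA1A averaged 1135 TPM, the neuronal hydrolase UCHL1 608, the tubulin TUBB3 302, the RNA-binding protein ELAVL4 185, the enolase ENO2 137 and the dendritic protein MAP2 101 TPM. The axonal protein MAPT averaged 3.29 TPM, and the peripheral intermediate filament PRPH only 0.704 TPM. Granule cargo was uneven. SCG2 averaged 858, VGF 840 and CHGA 658 TPM, but 4 of the 20 members of the granule and neuropeptide list had no count in any control. Of the 20, 14 reached the filter.

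The noradrenergic regulators PHOX2A (546 TPM), GATA2 (512 TPM), SOX4 (427 TPM), HAND2 (353 TPM) and ISL1 (139 TPM) were all abundant. GATA3 averaged 72.5 TPM, and MYCN, which is not amplified in this line, 4.62 TPM. The transmitter genes split by enzyme: DBH, which makes noradrenaline, averaged 657 TPM, the noradrenaline transporter SLC6A2 126 TPM and the decarboxylase DDC 119 TPM. TH, the first enzyme of the same route, had 1 to 12 counts per library and a mean of 0.106 TPM. On the cholinergic side the vesicular transporter SLC18A3 averaged 26.3 TPM and ACHE 18.5 TPM, but CHAT, which makes acetylcholine, averaged 0.275 TPM with 13 to 39 counts per library. By their markers the libraries therefore carried the noradrenergic neuroblastoma label without the transcript of its first enzyme at more than trace level.

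Cells of these cultures still held transcripts of division. PCNA, the clamp of DNA replication, averaged 269 TPM, the topoisomerase TOP2A 175 TPM and the proliferation antigen MKI67 75.3 TPM. The inhibitors CDKN1A and CDKN1B averaged 123 and 49.9 TPM, and CDKN2A 0.169 TPM.

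Markers of other cell types were low apart from the mesenchymal list. Summed over 13 immune markers, 10 of which had a count, the level was 1.03 to 1.75 CPM in the pre-treatment and 0.755 to 2.37 CPM in the co-treatment controls. PTPRC, the pan-leukocyte phosphatase, had 0 to 33 counts, and CD3D had 0 in all 6. The 8 endothelial markers summed to 1.54 to 2.21 and 1.45 to 1.80 CPM, with CDH5 at 0 counts. The 12 glial markers summed to 6.71 to 7.83 and 6.47 to 7.90 CPM, with OLIG2 and FOXD3 at 0 counts. The 8 epithelial markers summed to 6.34 to 8.40 and 8.68 to 10.2 CPM, with KRT5 at 0 counts. The 6 pluripotency markers summed to 0.395 to 0.637 and 0.507 to 0.667 CPM. The 26 mesenchymal markers summed to 612 to 905 and 721 to 755 CPM, carried by LGALS1 (568 TPM), S100A6 (338 TPM), SPARC (71.9 TPM) and FN1 (26.0 TPM), while VIM averaged 3.05, COL1A1 0.321 TPM, and the defining factor PRRX1 had 0 to 1 count. Of these summed levels, the epithelial one alone did not overlap between the control sets, and the keratins KRT18 and KRT19 lay lower in all 3 pre-treatment controls.

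**Figure D3:**
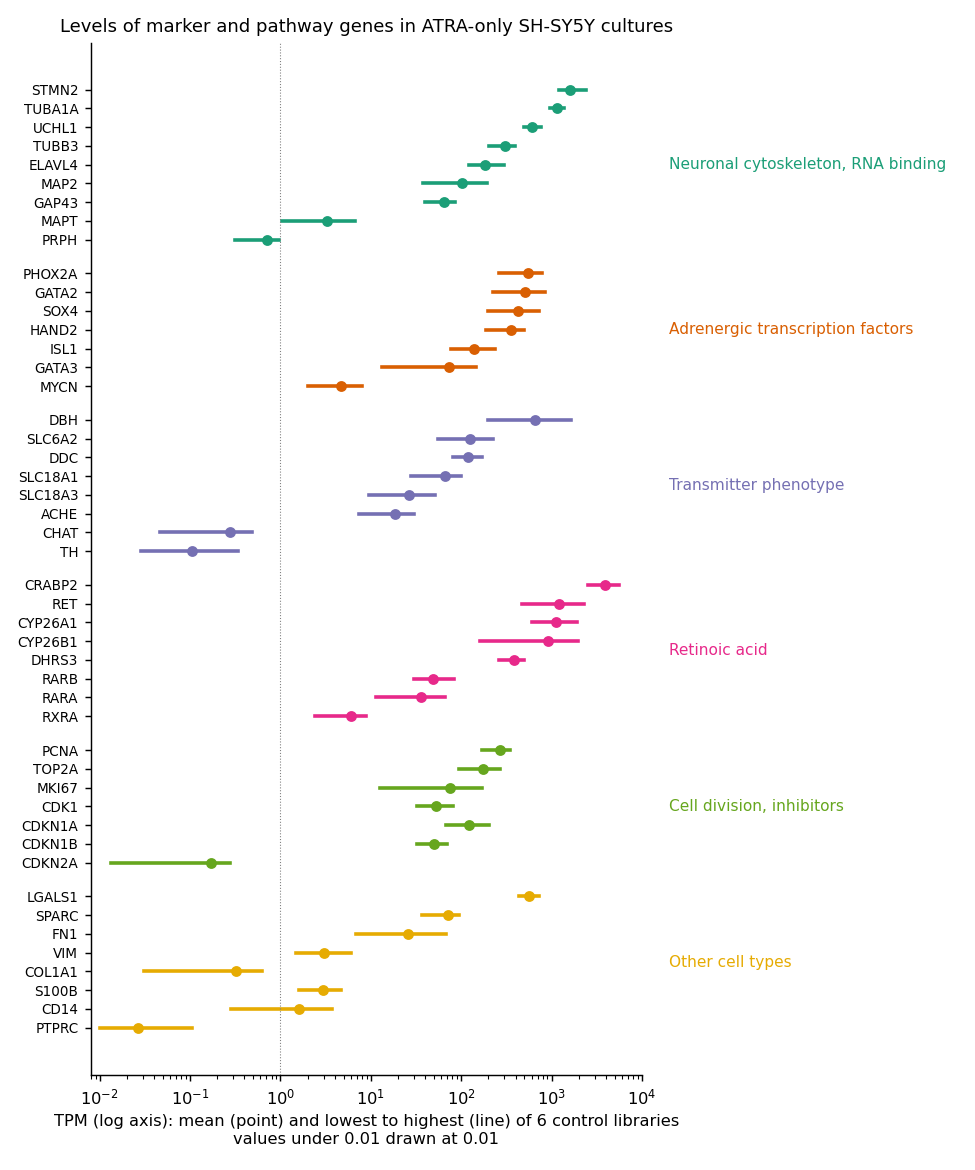
Points give the mean TPM of each gene over the 6 control libraries and lines its lowest and highest value, on a log axis, grouped by role. CRABP2 (3945 TPM) and STMN2 (1614 TPM) stand at the right, and TH (0.106 TPM), CHAT (0.275 TPM) and PTPRC (0.0266 TPM) at the left of the dotted line at 1 TPM.

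Variation between the 6 libraries was uneven across genes. Over 4864 coding genes above 50 CPM, the median SD of log2 CPM was 0.24, with 0.15 among the co-treatment controls and 0.28 among the pre-treatment controls. ELMO2, an adaptor for cell engulfment and migration, lay between 90.1 and 94.0 CPM in all 6, NUP98, a nuclear pore protein, between 142 and 150 CPM, and MTMR4, a phosphoinositide phosphatase, between 318 and 335 CPM. SNAPC3, a factor for small nuclear RNA transcription, was the remaining steady gene at 105 to 111 CPM. At the other end stood ATN1, a transcriptional corepressor, with 87.9, 164 and 9.73 CPM in the pre-treatment controls and 22.0, 10.8 and 13.2 CPM in the co-treatment controls. The splicing factor SRRM2, the histone demethylase KDM6B, the histone methyltransferase KMT2D and the coregulator ZMIZ1 had the same shape, high in pre-treatment controls 1 and 2 and low in pre-treatment control 3. KMT2D, for example, had 281, 344 and 32.5 CPM against 74.8, 35.2 and 37.3 CPM.

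The first comparison asked which genes differed between the control sets when all 6 libraries were used. Of 23739 genes tested with edgeR's quasi-likelihood test, 0 (0.0%) passed a Benjamini-Hochberg FDR of 0.05 with an absolute log2FC above 1, and 1551 (6.53%) had an unadjusted p under 0.05. Limma-voom called 0 genes too, edgeR's exact test 11 and DESeq2 26, and leaving out pre-treatment control 3 gave 2612. The 3 libraries of one set all lay above the 3 of the other for 1048 genes higher in the pre-treatment controls (4.41%) and 1361 genes lower (5.73%). Sets of 3 and 3 drawn at random stand apart, in either direction, with probability 0.10. These shares together lie near that, so standing apart does not by itself mark a gene as different.

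The genes named next were the 5 of smallest p in each direction among genes whose sets did not overlap, and none was called. CCBE1, a secreted protein of lymphatic growth at chr18:57098171-57364894, had 75.6, 61.9 and 82.8 CPM in the pre-treatment controls and 36.3, 35.5 and 34.6 CPM in the co-treatment controls. Its log2FC, always given as pre-treatment over co-treatment, was 1.05 ± 0.16 (SE; adjusted p = 0.692, as for the other 9 genes). That all 3 pre-treatment libraries lay above the co-treatment ones, pre-treatment control 3 included, follows from how these genes were chosen.

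Other genes with low values in the co-treatment controls were SLC7A11 and ENC1. SLC7A11, the cystine importer that feeds glutathione synthesis (chr4:139085251-139163503), had 4.22, 3.55 and 3.47 CPM against 1.44, 1.04 and 1.42 CPM (log2FC 1.53). ENC1, an actin-binding protein of the nervous system, had 24.9, 24.4 and 25.1 CPM against 14.7, 11.9 and 11.4 CPM (log2FC 0.97). For these genes the pre-treatment values were close to each other, and none reached down to the co-treatment range. Both traits largely follow from choosing genes of small p whose sets did not overlap.

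XAGE1C, a cancer-testis antigen with near-identical copies on the X chromosome that make its counts uncertain, had 38, 85 and 77 counts against 2, 0 and 0. C8orf4, a small regulator also called TCIM, went the other way with 1, 0 and 1 counts against 33, 20 and 22. Both were near the floor in one set, so no fold is given.

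Among genes with lower pre-treatment values, SLC8A1, the sodium-calcium exchanger of the plasma membrane, had 3.79, 3.71 and 4.02 CPM against 7.60, 9.05 and 8.94 CPM (log2FC -1.15). PAPPA2, a protease that cleaves IGF-binding proteins, had 1.72, 2.00 and 1.71 CPM against 4.30, 4.22 and 6.27 CPM (log2FC -1.44), and RP5-857K21.11, a symbol of no known role, had 59.5, 54.7 and 90.6 CPM against 216, 182 and 131 CPM (log2FC -1.37). The edgeR exact test and DESeq2 both called CCBE1, PAPPA2, SLC7A11, SLC8A1, XAGE1C, RP5-857K21.11 and RGPD5, a gene with close paralogs, and neither called ENC1.

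**Figure D4:**
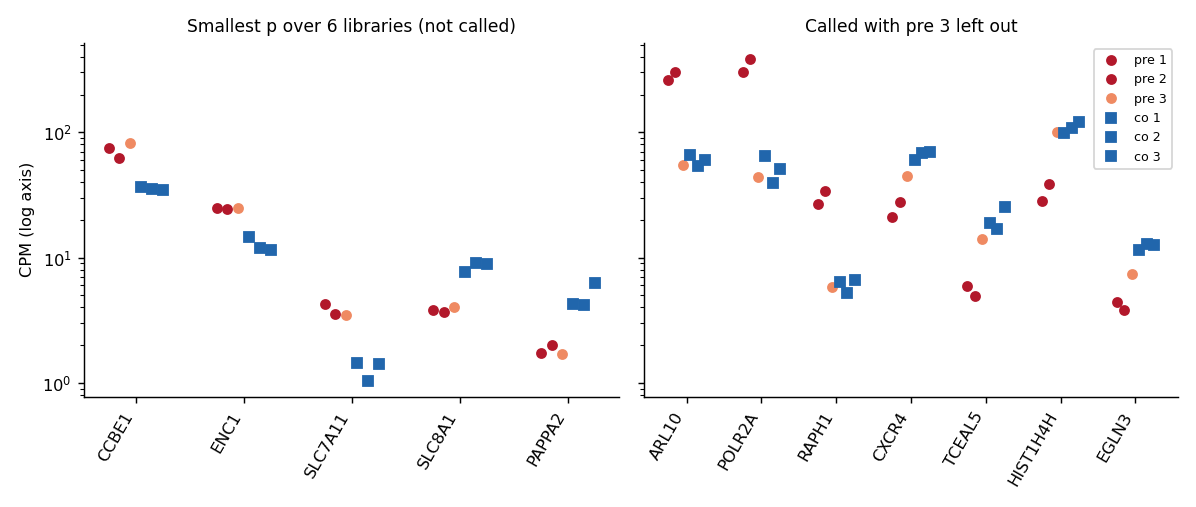
Points give CPM on a log axis in each control library. At the left are 5 genes of small p over all 6 libraries, none called, chosen among genes whose sets did not overlap. At the right are 7 genes called with pre-treatment control 3 left out. At the left all 3 pre-treatment controls stand clear of the co-treatment controls, as for CCBE1 at 61.9 to 82.8 against 34.6 to 36.3 CPM, whereas at the right pre-treatment control 3 lies within or near the co-treatment range for ARL10, POLR2A and RAPH1 (POLR2A at 44.3 CPM against 39.5 to 64.4 CPM) and between the groups for CXCR4, TCEAL5 and EGLN3.

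Gene lists were read against the shares of all genes whose sets did not overlap, 4.41% higher and 5.73% lower. Of 30 genes of cell division and DNA replication, 12 (40%) lay lower in every pre-treatment control, and 0 higher. They included the helicase subunits MCM2, MCM3, MCM4, MCM5 and MCM6, the kinase CDK2, the factor E2F1, the nucleotide-making enzyme RRM2 and the mitotic kinases AURKB and BUB1B. MCM3 had 179, 189 and 229 CPM against 257, 286 and 329 CPM, and CDK2 25.5, 27.2 and 35.1 against 41.2, 47.1 and 52.1 CPM. No member passed the test, 10 had an unadjusted p under 0.05, and MKI67 went otherwise with 434, 509 and 105 CPM against 256, 138 and 159 CPM. The list's median log2FC was -0.37 beside 0.02 for all genes. Reference genes, fixed as a list of housekeeping transcripts, also lay low, with a median of -0.24 and 4 of 19 (21.1%) lower in every pre-treatment control, GUSB, SDHA and TBP among them. Of 19 mesenchymal markers 4 (21.1%) lay lower too.

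Of 21 genes of glycolysis and the hypoxia response, 6 (28.6%) lay lower in every pre-treatment control: the vasoactive peptide ADM, the oxygen sensor EGLN3, the lactate-forming enzyme LDHA, the collagen hydroxylase P4HA1, ANKRD37 and the carbonic anhydrase CA9. ADM had 13.4, 16.8 and 18.9 CPM against 27.3, 35.2 and 42.9 CPM. Of 20 genes of cholesterol and fatty acid synthesis, 5 (25%) lay higher, among them INSIG1, which holds the sterol sensor in the endoplasmic reticulum, and the synthesis enzymes HMGCS1 and LSS. INSIG1 had 202, 153 and 283 CPM against 122, 138 and 147 CPM. Of 19 noradrenergic factors, 5 (26.3%) lay lower, HAND1, HAND2 and LMO1 among them, and EYA1 lay higher. HAND2 had 336, 373 and 436 CPM against 561, 490 and 478 CPM, so its nearest libraries lay at 436 and 478 CPM.

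Other lists gave fewer such genes. The vesicle proteins SYT4, CPLX2 and VAMP1 (3 of 22) and the granule proteins CHGB and PCSK1N (2 of 14) lay lower. The 21 retinoic acid genes divided, with TGM2 and ALDH1A3 higher (9.52%) and RXRA and RDH10 lower (9.52%), beside 4.41% and 5.73% of all genes. Of 18 immediate early genes, EGR1 and FOS lay higher (11.1%). EGR1 had 61.2, 68.8 and 16.7 CPM against 16.4, 5.94 and 6.62 CPM. In that gene the lowest pre-treatment and highest co-treatment value almost touched.

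The second comparison left out pre-treatment control 3. It was left out because it stood with the other set in results seen before, so these calls describe the remaining 5 libraries and are no independent evidence about the sets. Of 25545 genes tested, 2612 (10.2%) were called by edgeR's quasi-likelihood test at an FDR of 0.05 and an absolute log2FC above 1, with 2235 (8.75%) higher and 377 (1.48%) lower in pre-treatment controls 1 and 2. The count rested on single libraries: it was 609 without pre-treatment control 1, 646 without pre-treatment control 2, and 3944, 1010 and 1377 without co-treatment controls 1, 2 and 3. Each of these 5 fits called 301 of the genes, 257 higher and 44 lower, and the 20 genes named below were among them. These genes were called in libraries that also differed in make-up, with small structured RNA at 1.59% and 2.88% against 5.31% to 12.9% of counted reads. The part of make-up in the calls was not tested with 5 libraries. A gene entered this fit at 0.134 CPM in 2 or more of the 5, so expression in pre-treatment controls 1 and 2 alone sufficed. Of the 2235 higher calls, 1857 had a value under the filter of 3 of 6 libraries, as did 373 of the 377 lower calls. Calls without one may have passed only through the group where they were high, and they stay in the 8.75% and 1.48%.

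The genes of smallest FDR that were higher in pre-treatment controls 1 and 2 included POLR2A, ARL10 and RAPH1. POLR2A, the catalytic subunit of RNA polymerase II (chr17:7387685-7417933), had 303 and 386 CPM against 64.4, 39.5 and 50.6 CPM (log2FC 2.71 ± 0.21, SE, adjusted p = 0.00282), and pre-treatment control 3 had 44.3 CPM. ARL10, a small GTPase-like protein (chr5:175792490-175828866), had 261 and 305 CPM against 66.1, 53.4 and 59.9 CPM (log2FC 2.21 ± 0.15, adjusted p = 0.00183), with 54.4 CPM in the library left out. RAPH1, an actin regulator of the leading edge, had 26.7 and 34.3 CPM against 6.40, 5.22 and 6.59 CPM (log2FC 2.30 ± 0.18, adjusted p = 0.00282), with 5.87 CPM left out. In all 3 the omitted library fell inside or beside the co-treatment range. The transcription factor IKZF4 (log2FC 1.98), the cadherin-like CDHR5 (2.51), and the transcripts TATDN2P2, AF131215.4, RP11-1023L17.2, PRR26 and RP11-417J8.6 completed the 10 genes, with log2FC of the latter 5 between 1.61 and 2.83.

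The genes of smallest FDR that were lower included CXCR4, TCEAL5 and EGLN3. CXCR4, the chemokine receptor for CXCL12 (chr2:136871919-136876747), had 21.1 and 27.7 CPM against 59.6, 68.0 and 69.8 CPM (log2FC -1.46 ± 0.17, adjusted p = 0.00409), and pre-treatment control 3 had 44.6 CPM, between the groups. TCEAL5, a small elongation factor-like protein, had 5.97 and 4.93 CPM against 18.9, 17.0 and 25.4 CPM (log2FC -1.93 ± 0.22), with 14.0 CPM left out. EGLN3, the prolyl hydroxylase that marks HIF for decay, had 4.42 and 3.79 CPM against 11.5, 12.9 and 12.6 CPM (log2FC -1.61 ± 0.19), with 7.37 CPM left out. For these 3 genes all 6 libraries kept the sets apart. RN7SL1, the RNA of the signal recognition particle, had 1539 and 1857 CPM against 7375, 14508 and 14269 CPM (log2FC -2.85 ± 0.33) but 30840 CPM in the omitted library, and its many copies make its count uncertain. The other 6 were HIST1H4H, HIST1H4A, SCARNA17, TCEAL2, the keratin KRT18 (log2FC -2.79) and C19orf43 (log2FC -1.21).

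Pre-treatment control 3 lay nearer to the co-treatment mean than to that of pre-treatment controls 1 and 2 for 1805 of 1857 genes called higher that had a value (97.2%), and beyond all 3 co-treatment controls for 891 (48.0%). Of 373 genes called lower, 321 (86.1%) lay nearer and 102 (27.3%) beyond. Its median distance from the co-treatment mean for genes called higher was -0.39 on the log2 scale, against 1.78 and 1.79 in the other pre-treatment controls. This library was left out because it stood with the co-treatment controls, and the genes were picked by the gap between the other libraries. Nearness to the co-treatment mean was thus largely set by these choices. No share over all genes was taken beside these.

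Replication-dependent histone genes gave 58 of the 377 lower calls. These genes supply histones during DNA synthesis, and their mRNAs end in a stem-loop in place of a poly(A) tail. With all 6 libraries, 5 of 76 tested (6.58%) lay lower in every pre-treatment control, near the 5.73% of all genes. Over the 5 libraries, 58 of 77 tested (75.3%) were lower and 1, HIST3H3, was higher, beside 1.48% and 8.75% of all genes. The median log2FC was -1.49 beside 0.03 for all genes. Across the 17 fits the median stayed between -1.99 and -1.11, with 20 to 61 members called lower. HIST1H2AE (chr6:26217149-26217665) had 45.3 and 74.5 CPM against 189, 248 and 316 CPM (log2FC -2.10 ± 0.27), and pre-treatment control 3 had 315 CPM. HIST1H2BB had 10.6 and 18.5 CPM against 48.2, 74.9 and 91.9 CPM (log2FC -2.33 ± 0.31), with 131 CPM in pre-treatment control 3. HIST1H4H had 28.1 and 38.3 CPM against 99.3, 107 and 121 CPM, and 100 CPM in pre-treatment control 3. In each the omitted library matched or exceeded the co-treatment values, and several H4 genes share near-identical coding sequence, so reads among them are uncertain. Small structured RNA and ribosomal protein shares moved with these values, at 1.59% and 2.88% against 5.31% to 12.9% and at 2.87% and 2.79% against 3.85% to 5.18%, and their part in them was not tested.

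The stem-loops of 5 of these genes, in the annotated GRCh37 transcripts, are shown because this element replaces the poly(A) tail. Capitals mark GG, any 3 bases, TTTTCA, any 3 bases and CC, searched on the transcript strand only, with 5 bases on each side:
HIST1H4H: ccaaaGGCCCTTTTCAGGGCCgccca
HIST1H4A: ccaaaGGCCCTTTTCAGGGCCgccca
HIST1H2AE: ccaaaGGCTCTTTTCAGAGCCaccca
HIST1H2BB: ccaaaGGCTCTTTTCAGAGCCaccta
HIST1H1E: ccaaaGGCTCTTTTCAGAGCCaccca
The motif lay in the last 200 bases of an annotated transcript in 50 of 80 matched histone genes (62.5%) and in 23 of 19067 other coding genes (0.121%). Both H4 genes carried the same letters, as did HIST1H2AE and HIST1H1E over the whole stretch.

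Cytosolic ribosomal protein genes also lay lower in pre-treatment controls 1 and 2. With all 6 libraries, 3 of 85 (3.53%) lay lower in every pre-treatment control, beside 5.73% of all genes. Over 5 libraries 24.7% were called lower, beside 1.48% of all genes. Of 85 tested, 21 were called lower and 0 higher, with 84 below 0 and a median log2FC of -0.89, and over the 17 fits 3 to 46 were called lower. RPS3, a protein of the small subunit, had 347 and 321 CPM against 662, 812 and 972 CPM (log2FC -1.31 ± 0.19). Pre-treatment control 3 had 982 CPM of RPS3, above every co-treatment control. Of 20 Cajal body RNAs, which guide modification of spliceosomal RNAs, 9 were lower and 0 higher with a median of -1.31, with 4 to 12 called lower over the 16 fits that tested them. The share of Cajal body RNAs called lower was 45%, beside 1.48% of all genes. With all 6 libraries, 2 of 20 (10%) lay lower in every pre-treatment control. SCARNA10 had 53.3 and 60.4 CPM against 189, 282 and 453 CPM (log2FC -2.46 ± 0.33) and 1057 CPM in pre-treatment control 3.

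Clustered protocadherins, the adhesion proteins by which neurons tell themselves from others, went the other way. With all 6 libraries, 1 of 56 (1.79%) lay higher in every pre-treatment control, beside 4.41% of all genes. Over 5 libraries 44.6% were called higher, beside 8.75% of all genes. All 56 tested had a log2FC above 0, 25 were called higher and 0 lower, and the median was 1.09, with 3 to 34 called over the 17 fits. PCDHGA9 had 3.97 and 3.84 CPM against 1.09, 0.827 and 0.638 CPM (log2FC 2.15 ± 0.30), and PCDHB13 had 11 and 10.8 CPM against 4.11, 2.25 and 2.79 CPM (log2FC 1.80 ± 0.26). Pre-treatment control 3 held 0.621 and 1.97 CPM of these genes, below all other controls. Alpha and gamma members share their last exons, so counts of single members are uncertain.

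**Figure D5:**
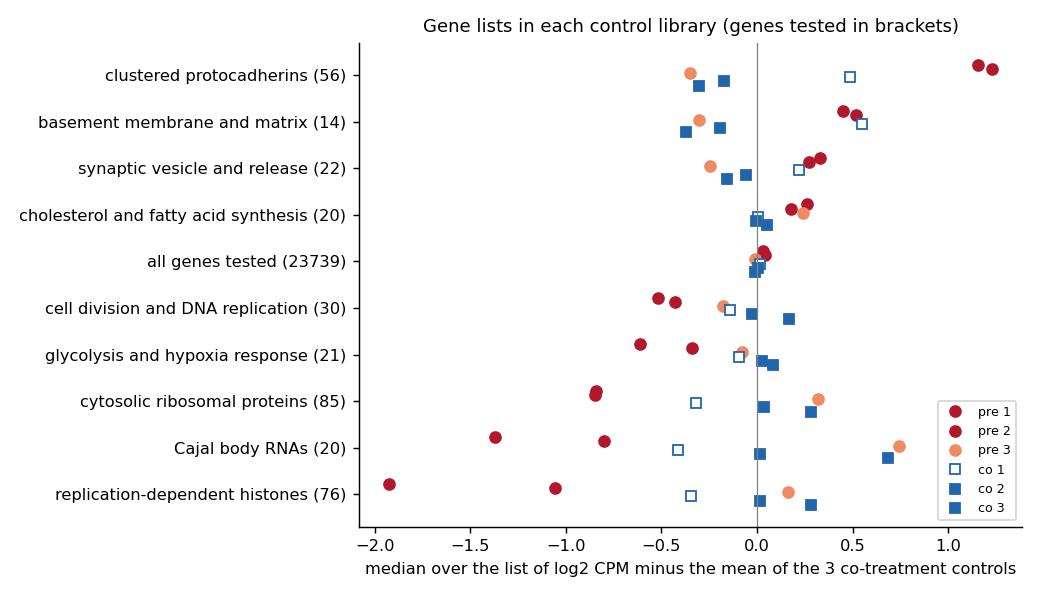
Points give, for each control library, the median over a list of log2 CPM minus the mean of the co-treatment controls, with the number of genes tested in brackets. Pre-treatment controls 1 and 2 stand at 1.15 and 1.23 for clustered protocadherins and at -1.93 and -1.06 for histones, while pre-treatment control 3 stands at -0.35 and 0.16, the former below every co-treatment control.

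Counts in the remaining lists are read against the 8.75% higher and 1.48% lower among all genes tested. Among protein-coding genes alone, which most of these lists hold, the shares were 4.37% higher and 1.26% lower. With 1 or 2 higher calls, a list of about 20 genes lies near these shares of higher calls. Of the called genes named in them, BSN, PCLO, VAMP2, NOVA1, NOVA2, EGR1, EGLN3, NEAT1, KCNQ1OT1, FTX and the mitochondrial CYB were called with each of the 5 libraries left out in turn, and the other called genes named lost the call in at least 1 of these fits. Of 22 synaptic vesicle genes, 6 (27.3%) were called higher, among them the presynaptic scaffolds BSN and PCLO, the fusion protein VAMP2, and SYN1 and SV2C. PCLO had 133 and 126 CPM against 46.0, 26.2 and 24.4 CPM (log2FC 1.98 ± 0.25), with 21.6 CPM in pre-treatment control 3. None was lower, the list's median was 0.30, and SYT4, CPLX2 and SNAP25 had log2FC below 0. Of 10 neuronal RNA-binding proteins, the splicing regulators NOVA1 (log2FC 1.57) and NOVA2 (2.75) were higher. Of 20 cytoskeletal and growth cone genes, the microtubule protein MAP1B was higher (log2FC 1.33) and GAP43 lower (log2FC -1.13), and TUBB3, MAP2 and STMN2 were not called.

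Among receptors, ALK (log2FC 1.04) and IGF1R (1.93) were higher and ERBB4 (-1.48) lower, of 19 tested, and over the 17 fits 0 to 4 of the list were higher and 0 to 2 lower. The muscarinic receptor CHRM3 was higher (1.90) and CHRM2 lower (-1.10), of 21 transmitter genes. CHRM3 had 41.7 and 129 CPM against 22.6, 21.5 and 23.1 CPM, so pre-treatment control 2 stood alone. Of 19 noradrenergic factors, KLF7 was higher (1.05) and 1 was lower, and of 21 retinoic acid genes only NAV2, a neuron navigator, was called (1.73).

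Stress and metabolic lists gave between 0 and 6 calls each. SLC7A11 was higher (1.56) and the ferritin heavy chain FTH1 lower (-1.57) of 21 antioxidant genes. FASN (1.57) and SREBF2 (1.02) were higher of 20 lipid genes. EGLN3, CA9 (-1.56) and ADM (-1.25) were lower of 21 hypoxia genes (14.3%). Of 18 immediate early genes, EGR1 (2.72) and EGR3 (2.70) were higher and MYC (-1.06) lower. Of 15 mitochondrially encoded genes, ND1, ND4, ND4L, ND5 and CYB were higher (33.3%), by 1.11 to 1.86 on the log2 scale, and ND3 lower (-1.39). Among 30 division genes only MKI67 was called (1.33), although 25 had log2FC below 0 and the median was -0.50. The reference genes had a median of -0.51, with 16 of 19 below 0. None of 20 cell cycle inhibitors and p53 targets, 18 unfolded protein response genes, 12 heat shock genes or 13 interferon genes was called, while 4, 3, 6 and 1 of them had an FDR under 0.05 at a smaller fold.

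Matrix and nuclear RNA genes were called in both directions. HSPG2 (1.80) and LAMA5 (1.36) were higher and COL4A1 (-1.30) lower of 14 basement membrane genes. VIM (-1.05) and ANXA2 (-1.18) were lower of 19 mesenchymal markers. The nuclear RNAs NEAT1 (1.38), KCNQ1OT1 (1.88), FTX (1.27) and LINC00473 (1.48) were higher and SNHG1 (-1.07) lower of 15 noncoding RNAs. MALAT1, the most abundant of them, was not called at 4259 and 4290 CPM against 4384, 2502 and 4470 CPM. Of the other cell type markers, CD14 was higher (1.70, at 1.20 and 1.49 CPM), while the other immune markers tested, FCER1G and PTPRC, had log2FC below 0, and KRT19 lower (-1.16, at 1.02 and 0.746 CPM), and the neuropeptide NPY was lower (-1.01).

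The calls were not spread evenly over kinds of transcript. Of 14562 protein-coding genes tested, 4.37% were higher and 1.26% lower. Of 995 long noncoding RNAs 14.3%, of 1873 pseudogenes 15.4% and of 7134 symbols without a match in the annotation 14.7% were higher. Among coding genes split into 5 equal groups by the length of their longest transcript, the median log2FC was -0.46, -0.28, -0.17, -0.01 and 0.21 from the shortest to the longest group. The share called higher was 3.19% in the shortest and 9.18% in the longest group, and the share called lower 4.39% and 0.206%. With all 6 libraries the same medians ran from -0.19 to 0.14, and in treated cells from -0.08 to 0.00. Groups by GC content had medians between -0.20 and -0.11. The kinds of transcript moved with reads outside genes, at 0.800 and 0.830 per counted read against 0.284 to 0.370, and the part of that difference in the result was not tested.

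Pre-treatment control 3 also had genes of its own, described without a test since it is 1 library. EIF3CL had 20.2 CPM there and 0.636 to 1.32 CPM in the other 5 controls, but it has a near-identical copy and its count is uncertain. The lens crystallin CRYGC, the neuropeptide CALCB, the kinase MAPKAPK3 and the calcium-binding SCGN followed, with gaps of 0.78 to 1.12 on the log2 scale above the nearest control. CALCB had 49.7 CPM against 5.48 to 27.4 CPM elsewhere. FUT9, the fucosyltransferase that makes the Lewis X sugar of neural cells, had 18.4 CPM there and 47.8 to 103 CPM elsewhere, and CLDN20, UPF3B, RTL1 and the teneurin TENM3 lay 0.82 to 0.92 below the nearest control.

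The third comparison set the treated cells of the experiments against each other, in libraries that share no sample with the controls but that differ in the timing of H2O2 too. It called 91 of 22442 genes (0.405%), 71 higher (0.316%) and 20 lower (0.0891%) in pre-treated cells. Of 1825 genes called higher over the 5 controls and tested there, 985 (54.0%) had the same sign and 5 were called higher. Of 365 called lower, 211 (57.8%) had the same sign, with 3 called lower and 4 called higher, beside 54.6% with the same sign among all 22261 genes tested in both. With all 6 controls, the same sign was found for 635 of 961 genes whose sets did not overlap and lay higher (66.1%) and for 761 of 1308 that lay lower (58.2%), beside 55.8% of all genes tested in both. Genes are not independent, so these shares carry no test.

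Single genes went both ways in treated cells. ARL10, POLR2A and RAPH1 had log2FC of -0.22, -0.45 and -0.15 there, none of them called. PAPPA2, low in the pre-treatment controls, was also lower in pre-treated cells (log2FC -1.66, adjusted p = 0.0499). SLC8A1, low in the pre-treatment controls, had a log2FC of 0.86 in treated cells (adjusted p = 0.0396), and ENC1, high in the pre-treatment controls, one of -0.95 (adjusted p = 0.0241), both under the fold threshold and opposite in sign to the controls. CCBE1 had a log2FC of -0.18 with an adjusted p of 0.908. The division genes had a median of -0.59 in treated cells, the histones -0.64, the ribosomal proteins -0.02 and the protocadherins -0.05.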

How the data were processed

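Libraries were made from rRNA-depleted RNA with a kit that keeps strand. Per the labels and the study's methods, the authors trimmed reads with cutadapt 2.10 after FastQC 0.11.8, mapped them to hg19 with HISAT2 2.1.0 and counted them per gene symbol with HTSeq 0.7.2. The deposited values are raw read counts per library, unnormalized and unfiltered, with closing entries for uncounted reads, which were kept out of library sizes. The strand setting and the annotation version of the counting are not given in the sources used here, so reads of overlapping antisense genes may not be separated. The fold changes, p-values and FDR of the authors' own comparisons were not used.

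Differences were tested with edgeR 4.0.16 under R 4.3.3 (TMM factors, quasi-likelihood test, Benjamini-Hochberg adjustment), limma 3.58.1 and DESeq2 1.42.0. A gene was tested if it reached 0.134 CPM (5 counts in the library of lowest depth) in 3 or more of 6 libraries, or 2 or more of 5. A call needed both FDR under 0.05 and log2FC beyond 1 in either direction. Log2 CPM used a prior count of 2. Control 1 to 3 of each set are the replicates of their group, and log2FC compares pre-treatment with co-treatment. Lengths and positions came from GENCODE 44 on GRCh37 (the build hg19), in which 34990 of 55765 symbols (62.7%) matched, and TPM used exon length over all genes with a length. Between 37228976 and 76140104 reads per control set the precision, and replicates differed by more than counting error (chi-square per degree of freedom of 32.9 to 545).

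The comparisons, members and gene lists were chosen with earlier results of these data known. Genes were named by a rule: of each list, the 2 to 4 members of highest and lowest level and the members called; the 15 coding and 10 long noncoding genes of highest mean TPM; for each control contrast, the 10 called genes of smallest FDR in each direction whose sets did not overlap or, with none called, the 5 of smallest p; the 5 coding genes with the widest gap of pre-treatment control 3 in each direction, above 10 TPM; and the 5 steadiest and 5 most variable above 50 CPM. List members beyond these, such as those whose sets did not overlap, were named after their values were seen. Some genes that met the rule are not reported here. The fits were tested on simulated data in which the counts of each gene were drawn independently. Such data hold no shared shift in library make-up, so they cannot show how that shift affects the calls. Alternatives were RLE, upper-quartile and library-size scaling, removal of small structured RNA and mitochondrial genes, no filter, filterByExpr, the exact test, DESeq2, limma-voom, 1 fit over all groups, other thresholds, a replicate block and each library left out.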

Additional observations from a re-analysis of the deposited data

How the results depend on the processing

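With all 6 control libraries the count of called genes was 0 in every scaling and filter tried, but 11 by the exact test, 26 by DESeq2, 1 in 1 fit over all groups (C8orf4) and 0 to 2612 with 1 library left out, where the value above 0 came from leaving out pre-treatment control 3. The covariates chosen after seeing the data (shares of small structured RNA and ribosomal protein genes, and reads outside genes) each gave 0. Without pre-treatment control 3 the count of 2612 was 2563 to 3759 under other scalings, filters and tests, 5055 with no fold threshold, 4349 at a threshold of 0.6, and 609 to 3944 with 1 library left out. Library size alone moved the median log2FC of all genes from 0.03 to 0.23 and upper-quartile factors to 0.17. Treated cells gave 91 calls, but 415 without a filter, 324 by the exact test, 246 by DESeq2, 60 by limma-voom, 16 in 1 fit over all groups, 190 with no fold threshold, 179 at 0.6, and 7 (without co-treated 3) to 330 (without pre-treated 3) with 1 library left out, and 10 without co-treated 1, 43 without pre-treated 1 and 52 without pre-treated 2. Coding genes at 10 TPM in every control numbered 6065, but 9320 over coding genes alone and 6065 to 6626 with 1 library left out. Of 178 named genes called over 5 libraries and the 10 of smallest p over 6, none reversed its sign, and over 5 libraries 2399 refits kept the call while 433 lost it. The other named genes were not refitted one by one.

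Residuals of control libraries with the same replicate number correlated at 0.31, -0.13 and 0.26. Differently numbered ones reached 0.34, for pre-treatment control 2 with co-treatment control 1. These residuals are centred on sets of 3 libraries, so they cannot show whether the replicate numbers pair the controls. With the number as a block, 1 gene (RN7SL5P) was called over 6 libraries, 1786 over 5 and 66 in treated cells. The causes of these shifts were not tested.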

Other observations

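Some transcripts varied widely between replicates. The imprinted retrotransposon-derived gene RTL1 had 79.3 CPM in pre-treatment control 2 and 1.17 to 5.35 CPM in the other 5 controls. The imprinted noncoding RNA H19 had 136 CPM in pre-treatment control 1, 300 CPM in pre-treatment control 3 and 765 to 965 CPM in the remaining 4. DBH had 1098 CPM in pre-treatment control 2 and 352 to 660 CPM elsewhere. CDR1, whose locus also gives rise to a circular RNA that these counts cannot separate, had 27.5 and 45.7 CPM in pre-treatment controls 1 and 2 and 1.46 to 4.34 CPM in the other 4.

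The low counts of C8orf4 in the pre-treatment controls were not seen in the treated cells, where it had 90, 65 and 73 counts in the pre-treated and 20, 38 and 17 in the co-treated libraries. XAGE1C counts were uneven within groups there, at 1, 1 and 80 in the pre-treated and 0, 10 and 41 in the co-treated libraries.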
